A study of Homo sapiens with 48 samples.

Results

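Kinesins and cytoplasmic dyneins are the motor proteins that move along microtubules. The genes described here are those whose symbol began with KIF followed by a digit or C, or with DYNC, DYNL or DCTN followed by a digit or letter. The rule took 56 genes, of which 52 were among the 11145 genes of the ribosome-protected fragment (RPF) table, 55 were among the 11947 genes of the total RNA table and 51 were in both. In the RPF table they were 12 mitotic kinesins, 12 transport kinesins, 8 other kinesins, 4 dynein-1 subunits, 4 dynein-2 subunits, 6 dynein light chains and 6 dynactin subunits.

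The libraries came from SW480, an established human colorectal cancer line with mutant APC. Cells were stably transduced by lentivirus with doxycycline-inducible shRNAs, and 3 lines were compared: shCTRL, with a non-targeting hairpin, shEIF2B1, which targets the eIF2Bα subunit, and shEIF2B4, which targets the eIF2Bδ subunit. eIF2B is the exchange factor that reloads eIF2 with GTP for the next round of translation initiation. Each line was grown for 5 days with vehicle (-DOX) or 1 µg/ml doxycycline (+DOX), in 4 experiments done in separate weeks, so each of the 6 groups had n = 4 lysates. Each lysate gave an RPF library and a total cytoplasmic RNA library. Values are regularized log2 counts as deposited, without counts, so the depth behind each value is unknown, and regularization draws low genes towards their mean.

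Kinesins with mitotic roles slide, cross-link or shorten spindle microtubules, carry chromosome arms and build the cytokinetic midzone. They are made and destroyed with the cell cycle. Transport kinesins carry vesicles, mitochondria and ciliary cargo in cells of any cycle stage, most of them towards microtubule plus ends. Dynein-1 with its activator dynactin moves cargo towards minus ends and also serves the spindle, whereas dynein-2 is the retrograde motor of the cilium.

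The targeted gene was lower in total RNA of each induced knockdown line. The response of a gene is its change on induction in a knockdown line minus its change in shCTRL, in log2 units. EIF2B1 had a total RNA response of -0.67 ± 0.15 (SE) to shEIF2B1 (limma adjusted p = 0.0263), and EIF2B4 had one of -0.49 ± 0.14 to shEIF2B4 (limma adjusted p = 0.0634). In RPFs the EIF2B4 response was -0.48 with limma adjusted p = 0.236. Of the markers of the line's tissue, 8 of 10 were measured, including EPCAM, CDH1 and CDX2, whereas VIL1 and LGR5 were in neither table. No fibroblast marker was measured and 1 of 5 leukocyte markers, CD14, was in the RPF table alone.

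Median RPF levels of the motors in uninduced shCTRL cells differed by role, with ranges that overlapped between roles of neighbouring rank. Per kilobase of coding sequence, the median RPF level was 9.53 (log2) for the dynein light chains, 8.86 for dynactin, 7.92 for dynein-1, 6.32 for the mitotic kinesins, 4.58 for the transport kinesins, 4.40 for dynein-2 and 3.15 for the other kinesins. DYNLL1, the light chain hub shared by many complexes, had the first rank at 12.86 and the ciliary heavy chain DYNC2H1 the last at 0.27. Among the mitotic kinesins the range was 4.20 (KIF14) to 8.43 (KIF22), and KIF5B, the ubiquitous conventional kinesin heavy chain, led the transport kinesins at 7.44. For KIF9, KIF13B and DYNC1H1 the coding models used were only 273, 2229 and 4425 bases long, so their levels cover part of the gene. In total RNA per kilobase of transcript the median order was the same, except that dynein-2 (5.91) lay above the transport kinesins (5.16).

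The members differ in sequence, and 2 sets are shown. The first, chosen to show how far kinesins differ in codon use at a shared site, is the stretch of 8 codons for the nucleotide-binding P-loop of the motor domain, in which capitals mark G or C at the third codon position (GENCODE v29 on GRCh38). KIF11 (chr10:92607163-92607186, plus strand, exon 4), KIF14 (chr1:200615360-200615383, minus strand, exon 3), KIF20B (chr10:89710029-89710052, plus strand, exon 5) and the depolymerase KIF2A (chr5:62361306-62361329, plus strand, exon 11) are set beside KIF18B (chr17:44935382-44935405, minus strand, exon 3), KIFC1 (chr6:33405323-33405346, plus strand, exon 7) and KIFC3 (chr16:57764155-57764178, minus strand, exon 12).
KIF11: ggCcaaactggCactggaaaaact
KIF14: ggtcaGactggCtctggaaaatca
KIF20B: ggGctaacCaattcaggaaaaaca
KIF2A: ggGcaGactggaagtggaaaaact
KIF18B: ggGgcCacCggGgctggGaaGaca
KIFC1: ggCcaGacaggCagtggCaaGacC
KIFC3: ggCcaGacGggCgcCggCaaGacG
In the first 4 of these genes 2 of 8 codons ended in G or C, in KIF18B and KIFC1 6 did and in KIFC3 8. These sites were picked as examples and do not sort the kinesins by response, since KIF1B and KIF3B also had 2 of 8 and were not called in RPFs after shEIF2B1, and KIF20A and KIF2C had 4 and fell. Over the whole coding sequence the share of codons ending in G or C (GC3) had a median of 44.7% for the mitotic kinesins, 62.9% for the transport kinesins and 59.0% for all 12231 genes with a coding sequence. GC3 was 29.2% in KIF20B, 30.2% in KIF14 and 31.4% in KIF11, where the coding sequence was matched by gene and not by transcript. It was 74.3% in KIF18B and 81.7% in KIF1A.

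The second set is promoter sequence. The 6 letters TTTGAA, or TTCAAA on the opposite strand, are the core of the cell cycle genes homology region, an element known from promoters of G2/M genes. The letters were searched on both strands in the 300 bases around each RefSeq start (GRCh38.p14), without requiring any other motif. They were found in 9 of 12 mitotic kinesins (75.0%), 1 of 10 transport kinesins, 1 of 4 dynein-2 genes, and 0 of 7 other kinesins, 0 of 5 dynein-1, 0 of 4 dynein light chain and 0 of 5 dynactin genes with a promoter entry. Of the 9887 measured genes with an entry, 13.6% held them. The windows for KIF11 (chr10:92593090-92593119, plus strand), KIF14 (chr1:200620733-200620762, minus strand), KIF15 (chr3:44761747-44761776, plus strand), KIF23 (chr15:69414282-69414311, plus strand), KIF4A (chrX:70290058-70290087, plus strand) and KIFC1 (chr6:33391815-33391844, plus strand) show the letters in capitals.
KIF11: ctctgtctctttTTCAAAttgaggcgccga
KIF14: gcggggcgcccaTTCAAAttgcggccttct
KIF15: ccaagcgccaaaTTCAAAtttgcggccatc
KIF23: ctgattggcccgTTTGAAatgcgccaggcg
KIF4A: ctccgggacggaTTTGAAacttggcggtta
KIFC1: tggccgttggaaTTCAAAagtggcgggtgt
KIF20A, KIF2C and KIF22 were the mitotic kinesins without these letters in the window. A match describes the letters, not use of the site.

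After eIF2Bα depletion, RPFs of most mitotic kinesins fell while those of most other motors did not pass the test. Of the 12 mitotic kinesins 10 fell and 0 rose in RPFs (limma, Benjamini-Hochberg adjusted p under 0.1 over all genes), and the median response was -0.78 (range -1.26 to -0.17). Of all 11145 genes 27.3% were called (12% higher, 15.3% lower), with a median response of -0.01. Without the replicate block 1 of the 12 was called, KIF20A. Of the 12 transport kinesins 1 rose and 1 fell (median -0.02), and of the 20 dynein and dynactin genes 1 rose and 1 fell (median -0.09). Over all 52 members 3 rose and 15 fell.

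KIF11 is the tetrameric motor that pushes spindle poles apart. Its RPF values in shEIF2B1 were 8.15, 9.22, 8.30 and 9.15 in -DOX and 7.21, 7.80, 7.36 and 8.02 in +DOX, in order of replicates 1 to 4. In shCTRL they were 7.26, 8.25, 7.68 and 8.58 in -DOX and 7.90, 7.91, 7.77 and 8.80 in +DOX. All 4 induced shEIF2B1 values were below all 4 uninduced values, whereas the shCTRL groups overlapped. The response was -1.26 ± 0.19 (SE, limma adjusted p = 0.000223), below 0 in 4 of 4 weeks.

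KIF20A works at the central spindle in cytokinesis. In shEIF2B1 its RPF values were 9.54, 9.76, 9.67 and 9.74 in -DOX and 8.64, 8.65, 8.57 and 8.74 in +DOX. In shCTRL they were 9.13, 9.49, 9.46 and 9.57 in -DOX and 9.31, 9.07, 9.29 and 9.47 in +DOX. The induced shEIF2B1 libraries lay below every other library of these 4 groups. Its response was -0.90 ± 0.13 (limma adjusted p = 0.000202), and it passed the test in every alternative that was run.

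KIF14, a midbody kinesin of cytokinesis, showed the week structure of the RPF libraries. Its values in shEIF2B1 were 6.75, 7.98, 6.81 and 7.69 in -DOX and 6.20, 6.55, 6.39 and 7.04 in +DOX. In shCTRL they were 6.18, 6.79, 6.12 and 6.94 in -DOX and 6.38, 6.77, 6.34 and 7.28 in +DOX. Weeks 2 and 4 were higher than weeks 1 and 3 in each of these groups, so the groups overlapped although the response was below 0 in 4 of 4 weeks (-0.95 ± 0.18, limma adjusted p = 0.00236).

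The other mitotic kinesins that fell had responses between -0.90 and -0.55. KIF20B, a midzone kinesin, ranged from 7.23 to 8.79 in uninduced and from 6.86 to 7.47 in induced shEIF2B1 RPFs (response -0.90 ± 0.17). KIF18A, which limits chromosome oscillation at metaphase, ranged from 7.60 to 8.65 and from 6.91 to 7.95 (-0.81 ± 0.17). KIF2C, the centromeric depolymerase, ranged from 8.73 to 9.11 and from 7.93 to 8.32 without overlap (-0.79 ± 0.15). KIF23, of the centralspindlin complex, had a response of -0.77 and the spindle motor KIF15 one of -0.74. The chromokinesin KIF4A had a response of -0.60 and was close to 0 in week 3, and the minus-end motor KIFC1 had one of -0.55. KIF4A has a near-identical intronless copy, KIF4B, with which reads could be shared. Not called were KIF18B (-0.17, limma adjusted p = 0.429) and the chromokinesin KIF22 (-0.17, limma adjusted p = 0.371).

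**Figure D1:**
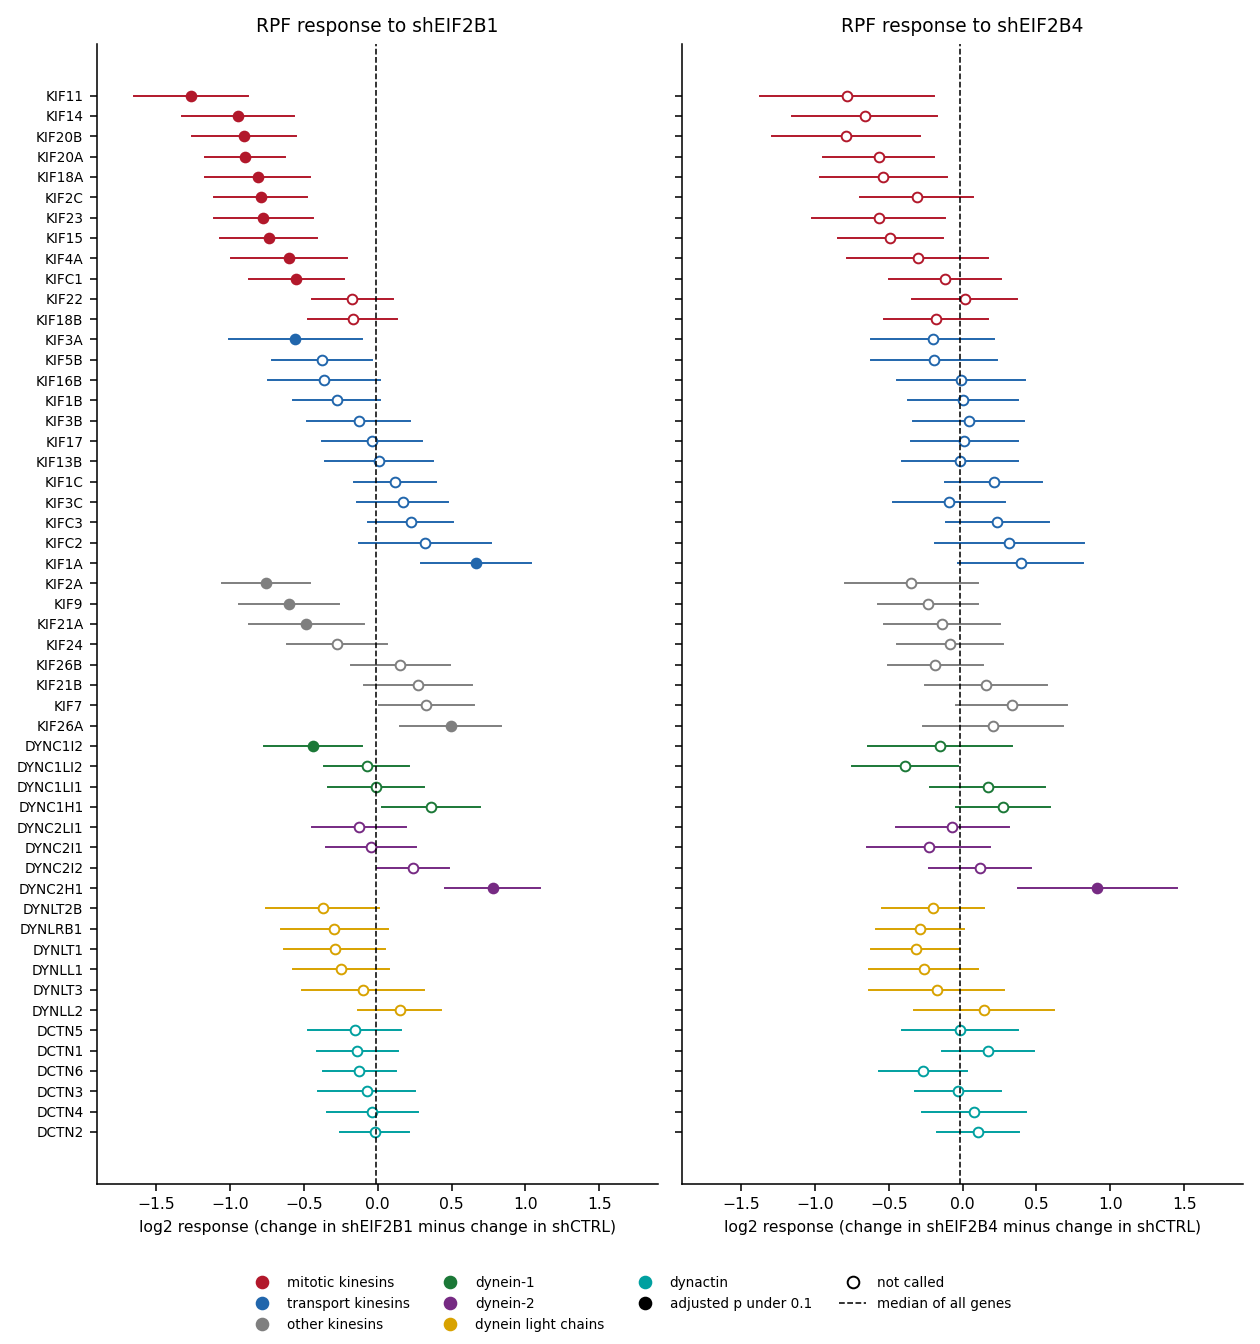
RPF response of each of the 52 members to shEIF2B1 (left) and shEIF2B4 (right), in log2 units on the x axis, with genes in rows coloured by role; bars are 95% confidence intervals, filled points have adjusted p under 0.1 and the dashed line is the median of all genes. The mitotic kinesins lie left of the line in both panels except KIF22 after shEIF2B4 (0.01), with 10 filled points on the left and 0 on the right, where DYNC2H1 is the filled point.

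**Figure D2:**
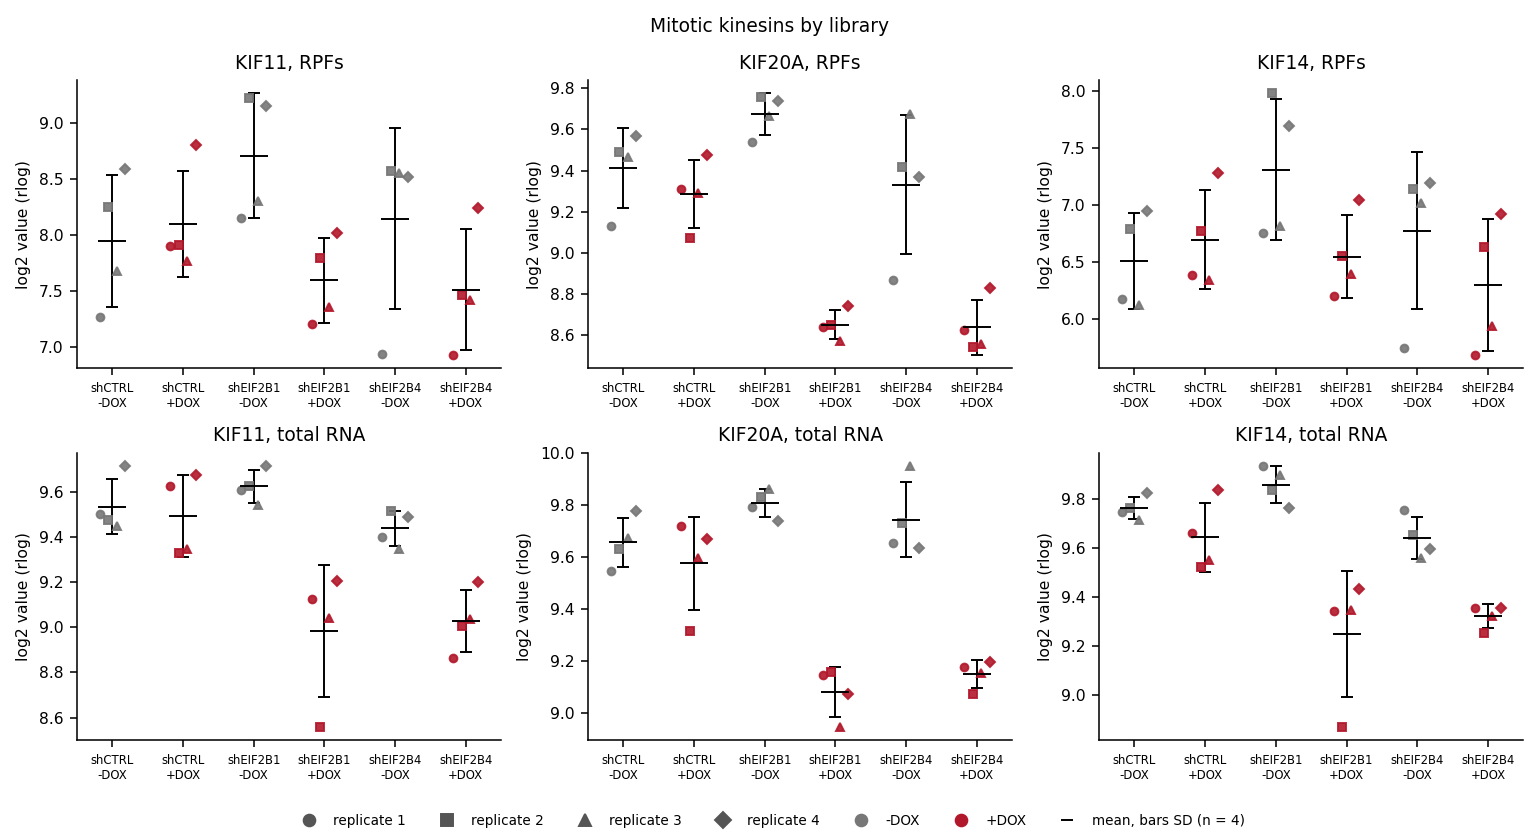
Regularized log2 values (y axis) of KIF11, KIF20A and KIF14 in RPFs (top) and total RNA (bottom) in the 6 groups, with 1 symbol per replicate and the mean with SD (n = 4) in black. The induced libraries of both knockdown lines lie low in total RNA, and replicates of a group are spread further in RPFs for KIF11 and KIF14.

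The RPF response to shEIF2B1 joined a higher start with a lower end. Before induction, 9 of 12 mitotic kinesins were already higher in RPFs of shEIF2B1 than of shCTRL and 0 were lower, with a median difference of 0.41 (KIF14 0.80, KIF20B 0.77, KIF11 0.76, KIF20A 0.26). In that contrast 45.9% of all genes were called (25.3% higher, 20.6% lower), and of the 52 members 21 were higher and 4 lower. In total RNA 0 of the 12 differed (limma; 1 at an unadjusted p under 0.05, median 0.05), where 0.00837% of all genes were called. After induction, 7 of 12 were lower in RPFs of shEIF2B1 than of shCTRL and 0 were higher (median -0.30), where 10.6% of all genes were called (5.71% higher, 4.88% lower). The 7 were KIF20A (-0.64), KIFC1 (-0.55), KIF2C (-0.53), KIF11 (-0.50), KIF23 (-0.33), KIF18B (-0.30) and KIF22 (-0.29). KIF14 (-0.15) and KIF20B (-0.13), among the highest before induction, were not called after it. The count was 3 without replicate 3 and 3 without replicate 4. These contrasts use the same libraries as the response.

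The size of the RPF response followed GC3 among kinesins. Across the 32 kinesins, Pearson's r between GC3 and the response to shEIF2B1 was 0.85 (Spearman's rho 0.84), and across the 12 mitotic kinesins r was 0.80. Across the 20 dynein and dynactin genes r was 0.03, and across 11128 genes it was 0.61. These are correlations across genes that share their libraries, given as a description. The uninduced difference between shEIF2B1 and shCTRL followed GC3 in the opposite direction, with r = -0.95 over the kinesins and -0.80 over all genes. Base composition thus moved with the RPF differences, and its part in them was not tested further than by removing from each library its linear trend on coding GC content. With the trend removed 10 of 12 mitotic kinesins were called lower (median -0.46), and 0 of 12 transport kinesins.

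In total RNA, which reads transcript level, mitotic kinesins were lower after induction in both knockdown lines. By response, 6 of 12 fell and 0 rose after shEIF2B1 (median -0.42), where 3.47% of all genes were called (2.34% higher, 1.13% lower). They were KIF20A (-0.64, limma adjusted p = 0.00813), KIF11 (-0.60, limma adjusted p = 0.0171), KIF2C (-0.59, limma adjusted p = 0.00318), KIFC1 (-0.50), KIF14 (-0.49) and KIF22 (-0.44). After shEIF2B4, 3 of 12 fell: KIF20A (-0.51, limma adjusted p = 0.0208), KIF22 (-0.39) and KIF11 (-0.37), with a median of -0.27 and 5.4% of all genes called (3.78% higher, 1.62% lower). All 12 responses were below 0 in each line. Without replicate 1, 0 of the 12 were called after shEIF2B1, and without replicates 3 and 4 the counts were 3 and 2. After shEIF2B4 the count was 1 without replicates 1, 2 or 4, and 0 without replicate 3.

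The direct contrast of induced lines gave fuller counts. All 12 mitotic kinesins were lower in total RNA of induced shEIF2B1 than of induced shCTRL (median -0.37, range -0.51 to -0.24), where 14.6% of all genes were called (8.09% higher, 6.55% lower). All 12 were also lower in induced shEIF2B4 (median -0.36, range -0.52 to -0.28), where 26.4% of all genes were called (9.82% higher, 16.6% lower). The lines share the induced shCTRL libraries. The first count was 8 without replicate 1 and 7 without replicate 4, and the second was 11 or 12 with any 1 replicate left out. Before induction KIF18A (-0.26) and KIF6 (-0.25) were the members lower in total RNA of shEIF2B4, where 1.69% of all genes were called (0.569% higher, 1.12% lower), and neither call was made with any 1 replicate left out.

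KIF20A shows the separation by library. Its total RNA values were 9.72, 9.32, 9.59 and 9.67 in induced shCTRL, 9.14, 9.16, 8.95 and 9.07 in induced shEIF2B1, and 9.18, 9.07, 9.16 and 9.20 in induced shEIF2B4. In the uninduced libraries of the 3 lines it ranged from 9.55 to 9.95. Every induced knockdown library was below every other library.

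KIF11 total RNA was 9.62, 9.33, 9.35 and 9.67 in induced shCTRL, 9.13, 8.56, 9.04 and 9.21 in induced shEIF2B1, and 8.86, 9.01, 9.04 and 9.20 in induced shEIF2B4. Here too the induced knockdown libraries did not overlap induced shCTRL. KIFC1 ranged from 7.29 to 7.60 in induced shCTRL, from 6.90 to 7.19 in induced shEIF2B1 and from 6.90 to 7.09 in induced shEIF2B4, and KIF22 from 7.95 to 8.13, from 7.52 to 7.98 and from 7.57 to 7.76. The KIF22 groups overlapped for shEIF2B1 alone.

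No transport kinesin passed the test of the total RNA response after either knockdown (limma; 0 of 13 each, 1 each at an unadjusted p under 0.05), and their medians were 0.04 and 0.03. In bulk libraries fewer cells in mitosis and less RNA per cell cannot be told apart. Cell cycle genes were counted beside the mitotic kinesins. Of 18 other G2/M genes 9 fell in total RNA and 14 in RPFs after shEIF2B1, of 18 G1/S genes 2 and 7 fell, and 0 of these rose, beside 1.13% of all genes lower in total RNA and 15.3% in RPFs. Their part in the kinesin values was not tested.

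**Figure D3:**
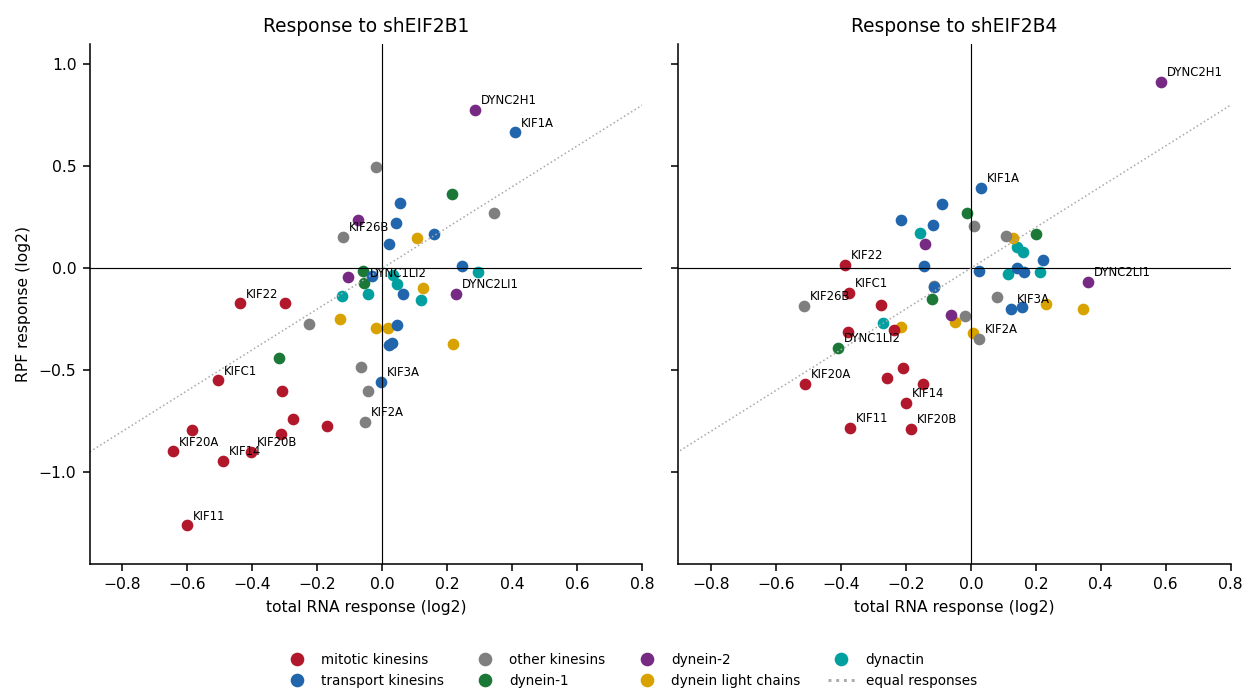
Total RNA response (x axis) against RPF response (y axis), both in log2 units, for the 51 members in both tables after shEIF2B1 (left) and shEIF2B4 (right), coloured by role; the dotted line marks equal responses. Mitotic kinesins fall in the lower left of both panels, except KIF22 after shEIF2B4 (RPF response 0.01), and mostly below the dotted line. After shEIF2B4, KIF22, KIFC1, KIF18B and KIF2C lie above that line. KIF2A and KIF3A lie low in RPFs alone after shEIF2B1.

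Translation efficiency (TE) is the RPF value minus the total RNA value of the same lysate. After shEIF2B1 the TE of 3 of 12 mitotic kinesins fell, namely KIF11 (-0.66, limma adjusted p = 0.0565), KIF23 (-0.60, limma adjusted p = 0.0451) and KIF15 (-0.46, limma adjusted p = 0.0855), with a median of -0.37. Of all genes 7.1% were called (2.97% higher, 4.13% lower). KIF20A (-0.26) and KIFC1 (-0.05) were not called in TE although both fell in RPFs and total RNA, and KIF22 (0.27) and KIF18B (0.13) had values above 0. Outside the mitotic group the TE of KIF2A (-0.70), KIF9 (-0.56) and KIF3A (-0.55) fell and that of KIF26A (0.51) rose. None of the 51 members was called in TE without replicate 1, 3 or 4. With the GC trend removed 1 was called, a dynein or dynactin gene that rose. After shEIF2B4, 0 of 51 were called in TE (limma; 7 at an unadjusted p under 0.05), where 0.0923% of all genes were called (0.0646% higher, 0.0277% lower), and without replicate 1 the count was 7. For shEIF2B1, r between GC3 and the TE response was 0.91 across 31 kinesins and 0.62 across all genes. For shEIF2B4 it was 0.90 and 0.71.

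After eIF2Bδ depletion the RPF values of the mitotic kinesins lay lower without passing the test. Of 12, 0 were called (limma; 7 at an unadjusted p under 0.05), 11 responses were below 0 and the median was -0.51, where 2.75% of all genes were called (1.88% higher, 0.87% lower). The responses of KIF20B (-0.79, limma adjusted p = 0.12), KIF11 (-0.78, limma adjusted p = 0.181), KIF14 (-0.66), KIF20A (-0.57, limma adjusted p = 0.135) and KIF23 (-0.57) were below 0 in 4 of 4 weeks. Without replicate 1, 7 of the 12 were called lower.

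That replicate holds an uninduced shEIF2B4 library with low values of several members. KIF11 RPFs in uninduced shEIF2B4 were 6.94, 8.57, 8.55 and 8.52, and in induced shEIF2B4 6.93, 7.46, 7.42 and 8.24. KIF14 was 5.75, 7.14, 7.01 and 7.19 uninduced and 5.68, 6.63, 5.94 and 6.92 induced. In both genes replicate 1 was far below the others before induction and changed least on it.

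Against induced shCTRL, 9 of 12 mitotic kinesins were lower in RPFs of induced shEIF2B4 and 0 were higher (median -0.47), where 19.7% of all genes were called (3.04% higher, 16.7% lower) and the median of all genes was -0.13. After median centring of the libraries the count was 3, and it was 3, 5 and 2 without replicates 2, 3 and 4. Before induction 3 of 12 were lower, KIFC1 (-0.35), KIF18B (-0.33) and KIF22 (-0.33), beside an all-gene median of -0.13 and 26.6% of all genes called (3.87% higher, 22.7% lower). None of the 12 was called there after centring. Without replicate 1 that contrast had 5 of the 12 higher and 3 lower, and without replicate 2, 3 or 4 it had 0 in either direction.

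The responses to the 2 knockdowns, which share the shCTRL libraries, were compared directly. No member differed in RPFs (limma; 4 of 52 at an unadjusted p under 0.05) or in total RNA (10 of 55), where 0.00897% and 0.1% of all genes were called (in total RNA 0.0586% higher and 0.0419% lower). For KIF11 the RPF response to shEIF2B1 minus that to shEIF2B4 was -0.48, with a 95% interval from -1.02 to 0.07. For KIF2C the difference was -0.48, with an interval from -0.83 to -0.13 (limma adjusted p = 0.746).

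Among transport kinesins KIF1A and KIF3A had the largest RPF responses to shEIF2B1. KIF1A, the fast carrier of synaptic vesicle precursors, rose (0.67 ± 0.18, limma adjusted p = 0.0158). Its RPF values were 7.19, 7.02, 7.05 and 6.31 in uninduced and 8.19, 7.93, 8.57 and 7.51 in induced shEIF2B1. Induction of shCTRL, which joins doxycycline with the non-targeting hairpin, also raised it, by 0.49 in RPFs and 0.42 in total RNA. In those contrasts 9.85% (5.23% higher, 4.62% lower) and 4.44% (2.27% higher, 2.18% lower) of all genes were called. The response is the excess over the change in shCTRL. No member was called in shCTRL, in either measure, without replicate 2, 3 or 4. All induced shEIF2B1 values were above all uninduced ones.

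KIF3A, a subunit of the heterotrimeric kinesin-2 of intraflagellar transport, fell (-0.56 ± 0.22, limma adjusted p = 0.0753). Its RPFs were 5.94, 6.73, 5.48 and 6.51 in uninduced and 5.65, 5.97, 5.97 and 5.91 in induced shEIF2B1. The value rose in week 3 of this line, by less than in shCTRL, so the response was below 0 in 4 of 4 weeks. KIF3A was higher than in shCTRL before induction (0.60, limma adjusted p = 0.00566) and not called after it (0.04, limma adjusted p = 0.907). Its total RNA response was not called (limma adjusted p = 0.995). The partner subunit KIF3B was not called in RPFs, nor was KIF5B (-0.38, limma adjusted p = 0.11).

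Of the other kinesins KIF2A and KIF9 had the largest responses. KIF2A is a depolymerase of spindle poles and of neurites, and was not counted with the mitotic kinesins. Its RPFs were 7.55, 8.51, 7.49 and 8.31 in uninduced and 6.82, 7.59, 7.01 and 7.87 in induced shEIF2B1 (response -0.75 ± 0.14, limma adjusted p = 0.00204). Its total RNA ranged from 10.06 to 10.19 and from 9.84 to 10.20, with a response of -0.05. KIF2A had the lowest GC3 of the members, 26.8%, and its RPF difference from shCTRL was 0.71 before induction and -0.05, not called, after it.

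KIF9, a ciliary kinesin counted here over 273 coding bases, fell in RPFs (-0.60) but had risen in shCTRL on induction (0.38). KIF21A, a cortical kinesin that restrains microtubule growth, fell (-0.48). Both were higher than in shCTRL before induction (0.31 and 0.43) and not called after it (-0.29 and -0.05). The atypical kinesin KIF26A rose in RPFs (0.49). In total RNA KIF26B fell after shEIF2B4 (-0.51 ± 0.11, limma adjusted p = 0.0103). Its values were 7.83, 7.76, 7.63 and 7.66 in uninduced and 7.29, 7.40, 7.19 and 7.25 in induced shEIF2B4, without overlap. After shEIF2B1 its response was -0.12 and was not called, and the test between the knockdowns gave 0.39 (limma adjusted p = 0.193).

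DYNC2H1, the heavy chain of the ciliary dynein-2, was the member that rose in RPFs after both knockdowns. Its RPFs in shEIF2B1 were 3.92, 4.36, 3.87 and 4.29 in -DOX and 4.70, 5.41, 4.97 and 5.58 in +DOX (response 0.78 ± 0.15, limma adjusted p = 0.00281). In shEIF2B4 they were 3.92, 3.92, 3.67 and 3.93 in -DOX and 4.10, 5.47, 4.99 and 5.66 in +DOX (0.91 ± 0.26, limma adjusted p = 0.0905). In shCTRL they ranged from 3.73 to 4.20 and from 3.97 to 4.60. The induced knockdown values lay above every uninduced value of their own line, with replicate 1 of shEIF2B4 closest. The response to shEIF2B4 was above 0 in 3 of 4 weeks and -0.11 in week 1. The shEIF2B4 call was lost without replicates 2, 3 or 4. DYNC2H1 had the lowest RPF level per kilobase of the members in uninduced shCTRL (0.27).

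Its total RNA rose after shEIF2B4 (0.59 ± 0.13, limma adjusted p = 0.0127), from 5.53, 5.48, 5.19 and 5.35 to 6.18, 6.07, 6.24 and 6.24. After shEIF2B1 its response in total RNA was 0.28, with limma adjusted p = 0.439. DYNC2LI1, the dynein-2 light intermediate chain, rose in total RNA after shEIF2B4 (0.36, limma adjusted p = 0.0939), from a range of 6.48 to 7.02 to one of 7.33 to 7.51, and had a total RNA response of 0.23 after shEIF2B1 that was not called. In shCTRL it rose as well (0.27). The intermediate chain genes DYNC2I1 and DYNC2I2 were not called by response in either measure.

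Of the dynein-1 subunits DYNC1I2 was called by response after shEIF2B1 and DYNC1LI2 after shEIF2B4. The intermediate chain DYNC1I2, which links the motor to dynactin, fell after shEIF2B1 in RPFs (-0.44, limma adjusted p = 0.0599) and in total RNA (-0.32, limma adjusted p = 0.0976). In RPFs it was higher than in shCTRL before induction (0.36) and not called after it (-0.08, limma adjusted p = 0.73). Its total RNA was 8.92, 9.01, 9.02 and 9.03 in induced shCTRL and 8.78, 8.62, 8.79 and 8.82 in induced shEIF2B1. The heavy chain DYNC1H1 had an RPF response of 0.36 that was not called (limma adjusted p = 0.114), and was higher in RPFs of induced shEIF2B1 than of induced shCTRL (0.46, limma adjusted p = 0.0179). The light intermediate chain DYNC1LI2 fell in total RNA after shEIF2B4 (-0.41 ± 0.10, limma adjusted p = 0.0335), from 8.79, 8.85, 9.07 and 8.96 to 8.52, 8.62, 8.48 and 8.69.

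No dynein light chain or dynactin gene was called by response in RPFs, total RNA or TE after either knockdown (limma; 0 of 12 in RPFs, 1 in total RNA and 2 in TE at an unadjusted p under 0.05 after shEIF2B1, and 1, 2 and 2 after shEIF2B4). The RPF responses to shEIF2B1 of the 6 light chains ranged from -0.37 (DYNLT2B) to 0.15 (DYNLL2), and those of the 6 dynactin genes from -0.16 (DCTN5) to -0.02 (DCTN2). The backbone subunit DCTN1 ranged from 8.88 to 9.05 in uninduced and from 8.65 to 9.05 in induced shEIF2B1 RPFs. DYNLRB1, a roadblock light chain, ranged from 9.50 to 9.93 and from 9.27 to 9.96.

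In the direct contrast of induced lines, members outside the mitotic group were also called in total RNA. In shEIF2B1 they were 1 of 13 transport kinesins, 1 of 9 other kinesins and 5 of 21 dynein and dynactin genes, beside 14.6% of all genes. In shEIF2B4 they were 3 of 13, 1 of 9 and 9 of 21, beside 26.4% of all genes. In total RNA of shEIF2B1, KIF1A (0.48), KIF21B (0.45), DYNC2H1 (0.43), DYNC1H1 (0.32), DCTN2 (0.27) and DYNLT2B (0.25) were higher than in shCTRL and DYNC1I2 (-0.25) was lower. In total RNA of shEIF2B4, DYNC2H1 (0.55), DYNLT2B (0.41), DCTN5 (0.25), KIF3B (0.23) and DYNC2LI1 (0.23) were higher. KIF26B (-0.63), DYNC1LI2 (-0.39), DCTN6 (-0.38), DYNC2I1 (-0.30), KIFC3 (-0.29), DYNLRB1 (-0.28), DYNC1I2 (-0.26) and KIF3C (-0.22) were lower. DYNC2H1, DYNLT2B and DYNC1I2 were thus called the same way against the shared induced shCTRL libraries. In RPFs of shEIF2B1 the members called outside the mitotic group were DYNC2H1 (0.93, limma adjusted p = 9.42e-06), KIF1A (0.55) and DYNC1H1 (0.46), each higher. In RPFs of shEIF2B4 they were DYNC2H1 (0.81), which was higher, and KIF26B (-0.66), DYNC1LI2 (-0.50), KIF3C (-0.48), KIFC3 (-0.37) and DCTN6 (-0.33), which were lower beside the all-gene median of -0.13.

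**Figure D4:**
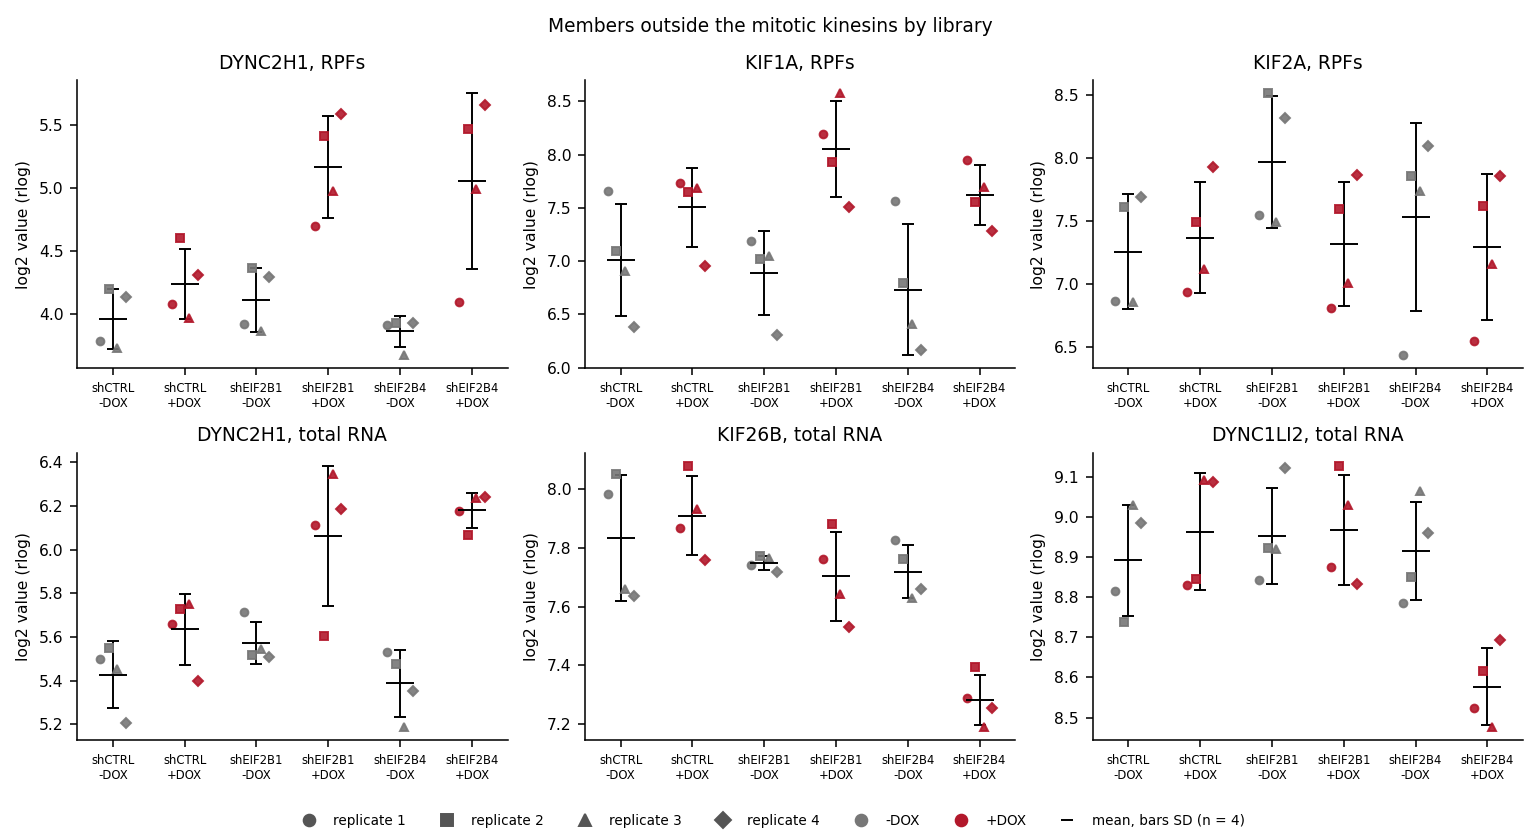
Regularized log2 values (y axis) of DYNC2H1, KIF1A and KIF2A in RPFs (top) and of DYNC2H1, KIF26B and DYNC1LI2 in total RNA (bottom) in the 6 groups, with 1 symbol per replicate and the mean with SD (n = 4). DYNC2H1 is high in the induced knockdown libraries, KIF26B and DYNC1LI2 are low in induced shEIF2B4, and the mean of KIF1A is higher in +DOX than in -DOX in each line.

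Lists of genes that work with the motors were counted in the same fits. Of 21 other spindle genes 17 fell and 0 rose in RPFs after shEIF2B1 (median -0.80), beside 27.3% of all genes called and 15.3% lower. In total RNA 14 of 22 fell (median -0.46), beside 3.47% of all genes called and 1.13% lower. Of 25 cargo adaptors and other motor partners 6 fell and 2 rose in RPFs (median -0.09), a share near that of all genes, and 0 of 27 were called in total RNA (limma; 3 at an unadjusted p under 0.05). Of 14 tubulin genes 0 were called in RPFs after shEIF2B1 (limma; 2 at an unadjusted p under 0.05). After shEIF2B4, 4 of 21 spindle genes, 0 of 25 motor partners and 0 of 14 tubulins were called in RPFs (limma; 11, 4 and 0 at an unadjusted p under 0.05), beside 2.75% of all genes.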

How the data were processed

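The 48 libraries were 24 RPF and 24 total cytoplasmic RNA libraries; replicate 3 joined 2 sequencing runs of the same library. The deposited values are regularized log2 counts that the authors made with DESeq2, separately for RPFs and total RNA, after alignment with Bowtie2 and RSEM on GENCODE v38; the submitters' notes also name cutadapt 1.18, SAMtools 1.9 and R 4.3.1. No counts were used here, so depth is unknown. TE was computed as the difference of the log2 values. limma 3.58.1 (R 4.3.3; lmFit, eBayes with trend) was fitted with a replicate block and the shRNA by DOX product on the 16 libraries of a knockdown line and shCTRL, two-sided, adjusted over all genes. Same-week libraries deviated together (mean correlation 0.559 in RPFs, 0.183 in total RNA, 0.538 in TE); the number marks the week of the experiment. The procedure was checked on simulated data with planted changes and noise drawn independently for each gene and library. That check did not cover library effects shared across genes. Coding sequences were from GENCODE v29 (GRCh38), promoters from RefSeq (GRCh38.p14).

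Members and lists were chosen with earlier results of these data known. Library values were planned for the 6 mitotic kinesins with the largest absolute RPF response to shEIF2B1 and the 2 largest of each other role. They were also planned for members called in RPFs or TE after shEIF2B4 or in total RNA. Ranges stand in where noted. KIF9, DYNC1H1, DYNC2I2, DYNLT2B and DCTN5 are given without either, apart from flagged libraries. P-values set the mean contrast against variation between the weekly experiments, after the level of each week was taken out by the replicate block. That variance was pooled over the groups of a fit and moderated across genes by limma.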

Additional observations from a re-analysis of the deposited data

Results flagged for a closer look

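Of 276 groups of 4 libraries of the 23 members chosen for library values, 17 had a library whose gap to the next exceeded Dixon's 95% critical value as a share of the group's range. Chance gives about 1 in 20. In RPFs of uninduced shEIF2B4, replicate 1 was the lowest for KIF11 (6.94), KIF14 (5.75), DYNC1I2 (7.49) and DYNC1LI2 (7.86). In the same group replicate 4 was lowest for DYNC1H1 (9.67) and replicate 3 for DYNC2H1 (3.67). In RPFs of induced shCTRL, replicate 4 was the highest for KIF11 (8.80) and DYNC1LI2 (8.85) and the lowest for KIF1A (6.95). In RPFs of shEIF2B1, induced replicate 3 was highest for DYNC1H1 (11.27), induced replicate 1 lowest for DYNC1LI2 (8.40) and uninduced replicate 4 highest for DYNLT2B (7.39). In total RNA of induced shEIF2B1, replicate 2 was lowest for KIF14 (8.87) and DYNLT2B (6.83), and replicate 4 highest for KIF9 (5.30). In total RNA of shCTRL, induced replicate 3 was lowest for KIF20B (10.42) and uninduced replicate 1 for DCTN1 (8.40).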

How the results depend on the processing

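Numbers of members called are given. Without the replicate block the RPF calls after shEIF2B1 went from 18 to 1, total RNA from 7 to 3 and TE from 7 to 0, and after shEIF2B4 the RPF calls went from 1 to 0 and total RNA from 7 to 3. It also left 0 of 4 RPF and 0 of 3 total RNA calls in shCTRL, 0 of 25 and 0 of 14 RPF calls in uninduced shEIF2B1 and shEIF2B4, 0 of 2 total RNA calls in uninduced shEIF2B4, and 3 of 10 and 1 of 15 RPF calls in the induced lines. Median centring gave 8 RPF and 1 total RNA calls in uninduced shEIF2B4, 7 RPF calls in induced shEIF2B4 and 1 total RNA call in shCTRL. Leaving out the lowest 25% of genes by mean gave 0 RPF calls after shEIF2B4. Members among those genes were then not tested, so a lost call can be a gene left out. One fit of all 24 libraries gave 0 TE calls after shEIF2B1 and 3 RPF calls after shEIF2B4. Without the shCTRL correction the counts were 20 in total RNA and 11 in TE after shEIF2B1, and 19 in RPFs, 28 in total RNA and 2 in TE after shEIF2B4. At adjusted p under 0.05 they were 3 in total RNA and 3 in TE after shEIF2B1, and 0 in RPFs and 4 in total RNA after shEIF2B4. With the GC trend removed 1 TE call was made after shEIF2B1. The cause was not tested.

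Leaving out each replicate in turn gave 13 to 21 RPF, 0 to 6 total RNA and 0 to 7 TE calls after shEIF2B1, and 0 to 10 RPF, 3 to 4 total RNA and 0 to 7 TE calls after shEIF2B4. In shCTRL it gave 0 to 16 RPF and 0 to 10 total RNA calls. Uninduced shEIF2B4 gave 0 to 27 RPF and 0 total RNA calls. Induced shEIF2B1 gave 5 to 10 RPF and 10 to 21 total RNA calls, and induced shEIF2B4 3 to 18 RPF calls. The 181 gene and comparison pairs followed were those called in the main fit, with mitotic kinesin responses at a limma unadjusted p under 0.05. None changed direction under the alternatives run, which reuse the same libraries, so a kept direction was likely beforehand. Of their alternative values 421 lost a call and 34 gained one. Depth is unknown, so no counting interval could be given.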
